A study of Homo sapiens with 12 samples.

Results

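The 35 genes described here are named estrogen receptor targets: genes that estrogen induces, or whose mRNA follows the estrogen receptor, in breast cancer. They were found by symbol in a table of 26485 genes, and all 35 were present. The rule that names them uses no measured value, although the list was drawn up with earlier results of these data known. BT474 is an established HER2-positive breast cancer cell line of wild-type genotype, and lapatinib is a small-molecule inhibitor of the HER2 and EGFR kinases. mRNA was sequenced from Control cells at day 0, drug-tolerant persisters (DTP) at day 9, drug-tolerant expanded persisters (DTEP) of month 6 and long-term resistant cells (LR), which the labels call Resistant, at month 9, with 3 libraries per group. DTP, DTEP and LR cells were kept in 1 µM lapatinib, renewed every 3 days. The label of the Control libraries names the same lapatinib treatment, but their titles call them Control at day 0, and they are taken as untreated here. All groups were grown in RPMI with fetal bovine serum, and the labels name neither estrogen nor an antiestrogen among the agents. The libraries of a group are described as technical replicates and also as parallel plates, so n counts libraries, and neither SDs nor p-values measure how far separately derived resistant cultures would differ.

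The estrogen receptor, encoded by ESR1, is a transcription factor that is switched on by estradiol and binds DNA at estrogen response elements, mostly far from promoters, with the help of the pioneer factor FOXA1 and of GATA3. It recruits coactivators of the NCOA family, p300 and Mediator, and corepressors such as NCOR1. In luminal breast cancer its targets include secreted proteins, receptors and growth regulators, and the progesterone receptor gene PGR is a classical target. HER2 signalling and the estrogen receptor are both growth inputs of cells that carry both.

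The genes AGR2 and AGR3 lie next to each other on chromosome 7 (GRCh38, 16791811 to 16804999 and 16854681 to 16881983) and encode related endoplasmic reticulum proteins, and their mRNAs took different courses in these libraries. CXCL12, on chromosome 10, went from 27.3 to 29.0 in Control to no read in any LR library. Their RefSeq promoter windows (GRCh38.p14, 250 bases before to 50 bases after the start, minus strand, written 5′ to 3′ along the gene) are shown to let these courses be read beside the sequence, at chr7:16881934-16882233, chr7:16804950-16805249 and chr10:44385048-44385347. Capitals mark AGGTCA, the half-site of the estrogen response element, on either strand.
AGR3: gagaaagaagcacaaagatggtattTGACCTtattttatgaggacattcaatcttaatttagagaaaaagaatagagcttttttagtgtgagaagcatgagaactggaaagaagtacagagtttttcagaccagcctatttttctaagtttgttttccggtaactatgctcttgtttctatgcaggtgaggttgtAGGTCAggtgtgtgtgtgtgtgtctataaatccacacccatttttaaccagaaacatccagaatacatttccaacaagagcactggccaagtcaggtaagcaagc
AGR2: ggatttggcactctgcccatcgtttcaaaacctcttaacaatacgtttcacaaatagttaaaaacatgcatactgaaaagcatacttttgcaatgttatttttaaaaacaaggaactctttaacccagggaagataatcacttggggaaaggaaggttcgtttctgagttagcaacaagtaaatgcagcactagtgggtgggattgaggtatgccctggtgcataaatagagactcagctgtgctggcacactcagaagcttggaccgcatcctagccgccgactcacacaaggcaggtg
CXCL12: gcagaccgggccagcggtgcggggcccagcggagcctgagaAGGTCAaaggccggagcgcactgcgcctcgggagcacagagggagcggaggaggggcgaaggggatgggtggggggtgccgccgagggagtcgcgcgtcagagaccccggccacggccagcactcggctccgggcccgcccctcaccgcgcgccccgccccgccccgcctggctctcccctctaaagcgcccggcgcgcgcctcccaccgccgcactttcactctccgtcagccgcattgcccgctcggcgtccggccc
The AGR3 window held the half-site at positions -225 and -55 relative to the start, the CXCL12 window held it at -209, and the AGR2 window did not hold these letters. Over the 33 windows of the 25 matched genes, 8 windows (24.2%) of 7 genes held the half-site on either strand. Of all 35116 RefSeq windows, 13.8% did. The 7 genes were AGR3, ANXA9, CXCL12, PDZK1, SERPINA1, SERPINA3 and TPBG. ANXA9 held the half-site and was not lower in LR than in Control. SUSD3 had no read in LR, and its window did not hold the half-site. Whether the half-site goes with the course of the mRNA was not tested. The full palindrome GGTCANNNTGACC, which contains GGTCA of the half-site, was in 0 of the 33 windows and in 0.0570% of all windows. Such matches describe letters and not binding. TFF1, TFF3, KCNK15, GREB1, MYBL1, EGR3, NAT1, RERG, ADCY9 and FKBP4 had no window in the promoter table used.

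Values are normalised read counts, meaning reads multiplied by a factor of each library. That factor did not follow the assigned reads of the library exactly. Values were compared between groups gene by gene, since they are not divided by gene length. Depth was 16383363 to 25030482 assigned reads per library, and where a library held no read of a gene, its level could still be as high as 3 reads, or 0.124 to 0.173 (counting error only). DTEP replicate 3 stood apart from its group: Pearson's r across genes was 0.971 to 0.986 with the LR libraries and 0.934 to 0.962 with the other DTEP libraries. Over 5 luminal epithelial markers (EPCAM, CDH1, KRT8, KRT18 and KRT19) the summed level was 3981 to 4232 in Control, then 4510 to 5714 in DTP, then 1481 to 3125 in DTEP and 1211 to 1981 in LR. Its genes differed: EPCAM was 196 to 212 in Control and 224 to 275 in LR, whereas CDH1 (E-cadherin) was 1094 to 1146 in Control and 60.6 to 91.1 in LR and was called lower. ERBB2 and GRB7, which are co-amplified in BT474, summed to 6882 to 7404 in Control, then 9048 to 10584 in DTP, then 1369 to 2336 in DTEP and 1647 to 2029 in LR. The basal marker TP63 was 4.29 to 5.52 in Control and 16.4 to 65.6 in LR. KRT5 and KRT14 and 8 markers of fibroblasts, leukocytes and endothelium reached at most 0.403, whereas the fibroblast marker COL1A1 was 50.9 to 61.7 in Control and 98.4 to 130.4 in LR. The part of these shifts in the results below was not tested, and whether the DTEP and LR cells have the same origin as the Control cells was not tested either. In such bulk samples, fewer cells that express a gene and less RNA per cell cannot be told apart.

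Of the 35 genes, 32 reached a value of 1 in 3 or more libraries and were tested, together with all 13794 such genes. PDZK1, SERPINA5 and EGR3 did not pass and are given by their levels. Calls required a limma adjusted p under 0.05 together with a log2 change beyond 2 in either direction, on log2(value + 1), which understates changes of low genes. Of the 4 comparisons, DTP with Control asked what the first 9 days of treatment did, DTEP with DTP and LR with DTEP followed regrowth and resistance, and LR with Control spanned the whole course. They share libraries and are not independent of each other. Each gene had the same estimate of spread in every comparison, taken over all 12 libraries. A wide spread in DTEP or LR can therefore keep a day 9 difference from passing, and a difference that did not pass is not shown to be absent.

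In the fit of all 12 libraries, the shares of estrogen receptor targets higher or lower at day 9 by adjusted p alone lay near or under those of all genes tested. That fit called 4 of 32 at day 9. At month 6, when cells grew again, 13 of the 32 tested were called lower, and 15 were called lower at month 9 against Control. In DTP against Control, 1 member (KCNK15) was called higher, beside 1.01% of all genes tested, and 3 (MYBL1, IL6ST and SERPINA1) were called lower, beside 3.90%. By adjusted p alone 6 were higher (25.2% of all genes) and 8 lower (28.8%), and the median log2 change of the tested members was -0.01, as was that of all genes. The count of day 9 differences depended on the fit. With only the 6 libraries compared, 25 members had an unadjusted limma p under 0.05, beside 6 higher and 9 lower in the fit of all 12 libraries. The share of all genes at that threshold was not computed. In DTEP against DTP, 0 were called higher (8.13% of all genes) and 13 of 32 lower (7.02%). By adjusted p alone 4 were higher (35.7%) and 20 lower (32.6%), and the median was -1.30, beside 0.08 for all genes. In LR against DTEP, 0 were called higher (0.225%) and 2, GREB1 and TFF1, lower (0.457%), with 0 higher (3.04%) and 6 lower (4.31%) by adjusted p alone and a median of -0.65, beside -0.07. In LR against Control, 0 were called higher (5.03%) and 15 of 32 lower (7.80%), with 4 higher (30.2%) and 25 lower (32.6%) by adjusted p alone and a median of -1.97, beside -0.03. edgeR and DESeq2 also called 0 members higher in the last 3 comparisons, and 4, 0 and 4 members were higher there at an unadjusted limma p under 0.05. The calls in LR against DTEP depended on the tool and on single libraries: edgeR called 10 members lower (3.70% of all genes) and DESeq2 11 (4.52%), while limma called 0 without DTEP replicate 2, 5 without DTEP replicate 3 and 0 with only the 6 libraries compared, where 7 members had an unadjusted p under 0.05.

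**Figure D1:**
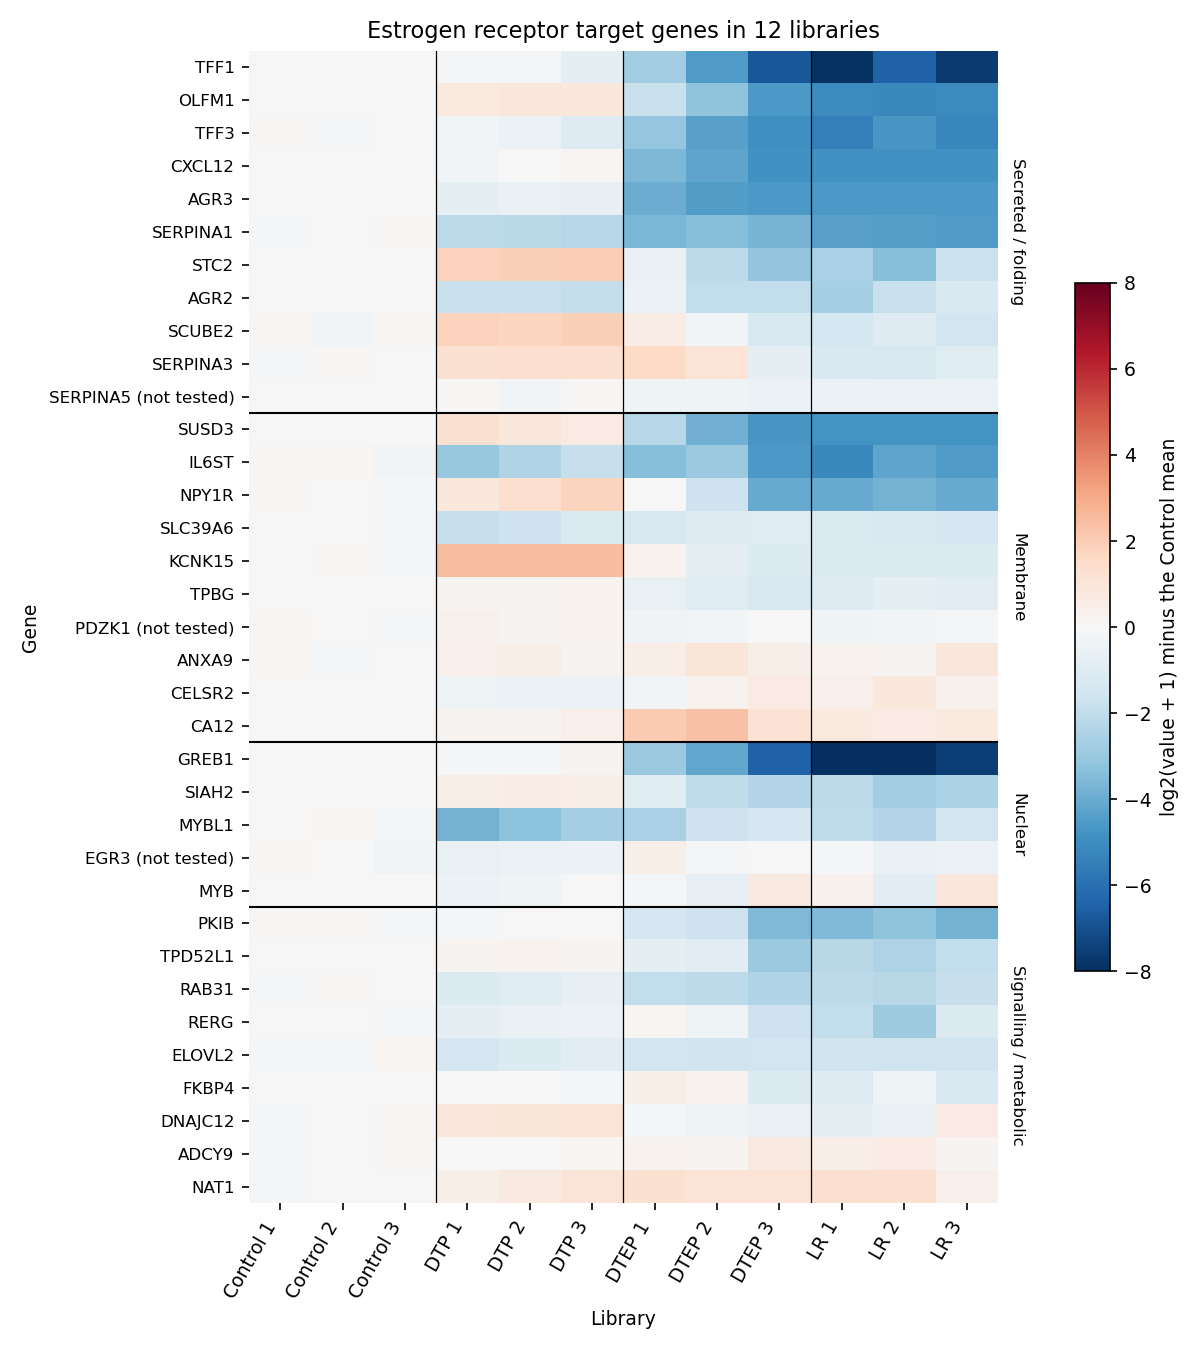
Heat map of the 35 estrogen receptor target genes (rows, grouped by role) in the 12 libraries (columns). Colour is log2(value + 1) minus the Control mean of the gene, blue lower and red higher. The 3 DTP columns hold both colours, the DTEP columns are blue for many secreted genes, deepest in replicate 3, and CA12 and NAT1 stay red in LR.

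**Figure D2:**
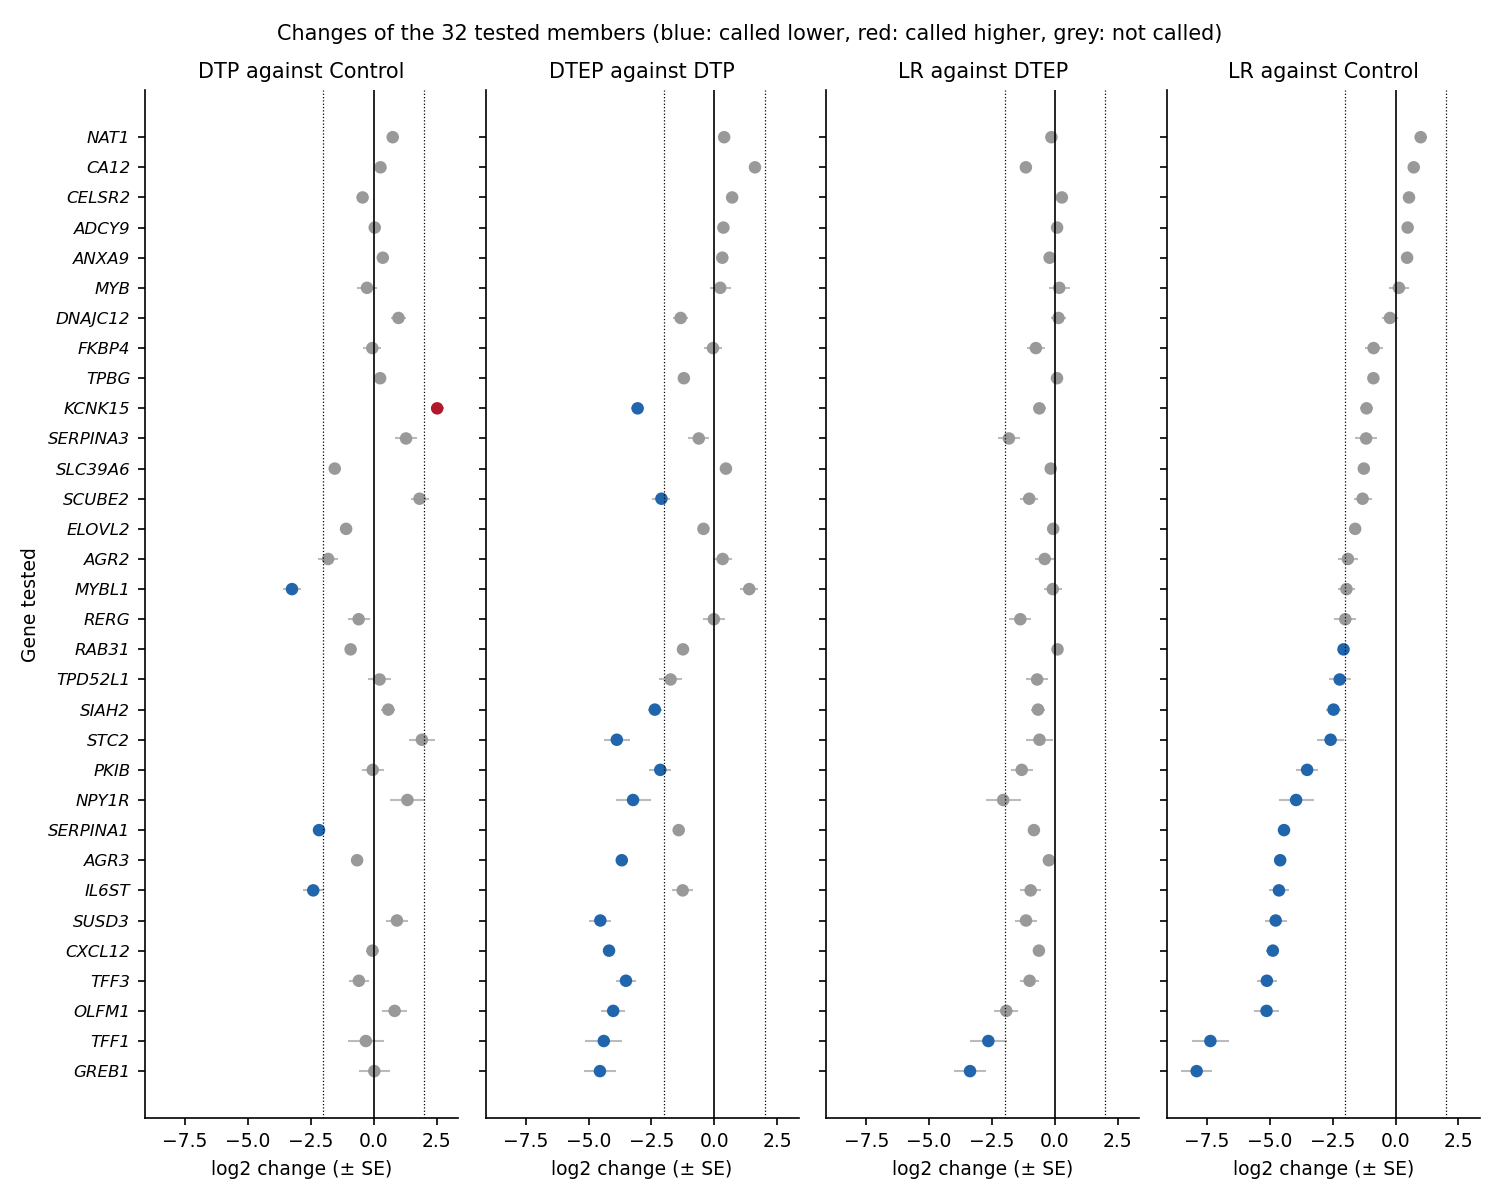
Log2 change ± SE (limma, 3 libraries per group) of the 32 tested members in the 4 comparisons, ordered by LR against Control. Blue points were called lower and red higher, dotted lines mark an absolute log2 change of 2, and the blue points number 3, 13, 2 and 15 from left to right.

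Of the 11 secreted and secretory-pathway members 10 were tested. By limma 1 was called lower at day 9 (3.90% of all genes), 7 in DTEP against DTP (7.02%), 1 in LR against DTEP (0.457%) and 7 in LR against Control (7.80%). limma called 0 of them higher at any step, whereas edgeR and DESeq2 called SCUBE2 higher at day 9. In DTEP against DTP, edgeR and DESeq2 each called 8 lower (12.6% and 13.1% of all genes), adding SERPINA1. In LR against DTEP they called 6 and 7 lower (3.70% and 4.52%). In LR against Control each called 9 lower (11.9% and 12.5%), adding SCUBE2 and SERPINA3. TFF1 and TFF3 are trefoil peptides that protect mucosal surfaces, neighbours on chromosome 21 (42362282 to 42366535 and 42311667 to 42315409), and TFF1 is a textbook estrogen target. TFF1 was 354, 339 and 367 in Control, 337, 312 and 217 in DTP, 49.5, 14.1 and 2.25 in DTEP and 0.465, 2.99 and 0.727 in LR. All DTP libraries lay below all Control libraries, but the difference did not pass the test in the fit of all 12 libraries (log2 change -0.32, limma adjusted p = 0.742). The groups after DTP did not overlap with it: TFF1 fell by 4.39 on the log2 scale in DTEP against DTP (SE of 0.73, limma adjusted p = 0.000188). In LR against Control the log2 change was -7.36 (SE of 0.73, limma adjusted p = 3.24e-06) and the ratio of means 254-fold. In LR against DTEP, TFF1 is named after its values were seen, because it was called (log2 change -2.65, limma adjusted p = 0.0488) although LR replicate 2 lay above DTEP replicate 3. TFF3 was 155, 139 and 147 in Control, 125, 104 and 70.0 in DTP, 16.4, 6.30 and 3.99 in DTEP and 2.32, 4.93 and 2.96 in LR. It followed the same order of groups, with a log2 change of -3.51 in DTEP against DTP (SE of 0.39, limma adjusted p = 6.96e-06) and of -5.11 in LR against Control (SE of 0.39, limma adjusted p = 3.31e-07).

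CXCL12, the chemokine ligand of CXCR4, and OLFM1, a secreted olfactomedin, kept or raised their mRNA at day 9 and lost it later. CXCL12 was 29.0, 27.3 and 28.8 in Control, 24.7, 27.2 and 30.2 in DTP, 1.39, 0.577 and 0 in DTEP and 0 in each LR library. DTP overlapped with Control (limma adjusted p = 0.882), and CXCL12 fell by 4.19 in DTEP against DTP (SE of 0.25, limma adjusted p = 6.2e-08). In LR it was at least 171-fold lower than in Control, taking the limit of 3 reads per library (log2 change -4.87, SE of 0.25, limma adjusted p = 1.62e-08). OLFM1 was 35.3, 33.8 and 35.8 in Control, 60.5, 65.8 and 62.4 in DTP, 9.33, 2.92 and 0.505 in DTEP and 0.0422, 0 and 0.0484 in LR, where no library held more than 1 read. Its DTP libraries all lay above Control. The difference did not pass the test in the fit of all 12 libraries, whose spread includes that of DTEP and LR (log2 change 0.83, limma adjusted p = 0.168). The log2 change was -4.02 in DTEP against DTP (SE of 0.48, limma adjusted p = 1.46e-05) and -5.13 in LR against Control (SE of 0.48, limma adjusted p = 2.17e-06).

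The 2 anterior gradient proteins, disulfide isomerase relatives that help fold secreted proteins, parted from each other. AGR3 was 22.5, 22.9 and 23.5 in Control, 13.2, 15.3 and 14.0 in DTP, 0.526, 0.0824 and 0 in DTEP and 0 in each LR library. Each group lay below the one before it up to DTEP. AGR3 fell by 3.68 in DTEP against DTP (SE of 0.17, limma adjusted p = 8.23e-09) and was at least 138-fold lower in LR than in Control (log2 change -4.58, SE of 0.17, limma adjusted p = 1.41e-09). AGR2 was 534, 536 and 555 in Control, 155, 160.1 and 145 in DTP, 383, 137 and 137 in DTEP and 83.9, 159.9 and 227 in LR. AGR2 thus stayed at a clear level in every library, lower than in Control by adjusted p alone in DTP (log2 change -1.81, limma adjusted p = 0.00198) and LR (-1.89, limma adjusted p = 0.00105), with LR overlapping DTEP and DTP. The difference between AGR3 and AGR2 in their changes was not tested.

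The serine protease inhibitors, SERPINA1 (antitrypsin) and SERPINA3 (antichymotrypsin), with SERPINA5 (protein C inhibitor), are genes of one cluster on chromosome 14. SERPINA1 was 22.0, 24.0 and 26.0 in Control, 4.85, 4.59 and 4.15 in DTP, 1.00, 1.32 and 0.898 in DTEP and 0.211, 0.166 and 0.0969 in LR. It was the secreted member called lower at day 9, with a log2 change of -2.18 (SE of 0.15, limma adjusted p = 6.15e-07), and no group overlapped with the one before it. SERPINA3 went the other way at first: it was 1.29 to 1.63 in Control, then 4.64 to 5.33 in DTP, 6.36, 4.24 and 0.505 in DTEP, and 0.0422, 0 and 0.242 in LR. The rise at day 9 passed the adjusted p alone (log2 change 1.28, limma adjusted p = 0.0231), as did the fall in LR against DTEP (-1.83, limma adjusted p = 0.0307). SERPINA5, below the filter, was 0.373 to 0.435 in Control and had no read in LR.

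STC2, a secreted glycoprotein hormone, and SCUBE2, a secreted EGF-domain protein that releases Hedgehog ligands, rose at day 9 and then fell. STC2 was 194, 195 and 186 in Control, 703, 727 and 739.8 in DTP, 124, 43.2 and 20.7 in DTEP and 30.3, 17.0 and 58.2 in LR. All DTP libraries lay above all others, with a log2 change of 1.91 against Control that passed the adjusted p alone (limma adjusted p = 0.00862). STC2 fell by 3.88 in DTEP against DTP (SE of 0.52, limma adjusted p = 3.53e-05). In LR it was 35.2 ± 21.0 (SD, n = 3) and called lower than in Control, 192 ± 4.89 (SD, n = 3), with a log2 change of -2.58. SCUBE2 was 1.69 to 2.38 in Control, then 9.23 to 10.8 in DTP, 3.78, 1.73 and 0.281 in DTEP and 0.0969 to 0.553 in LR, and was called lower in DTEP against DTP (log2 change -2.10). Without DTEP replicate 3 that log2 change was -1.60, which is not called.

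**Figure D3:**
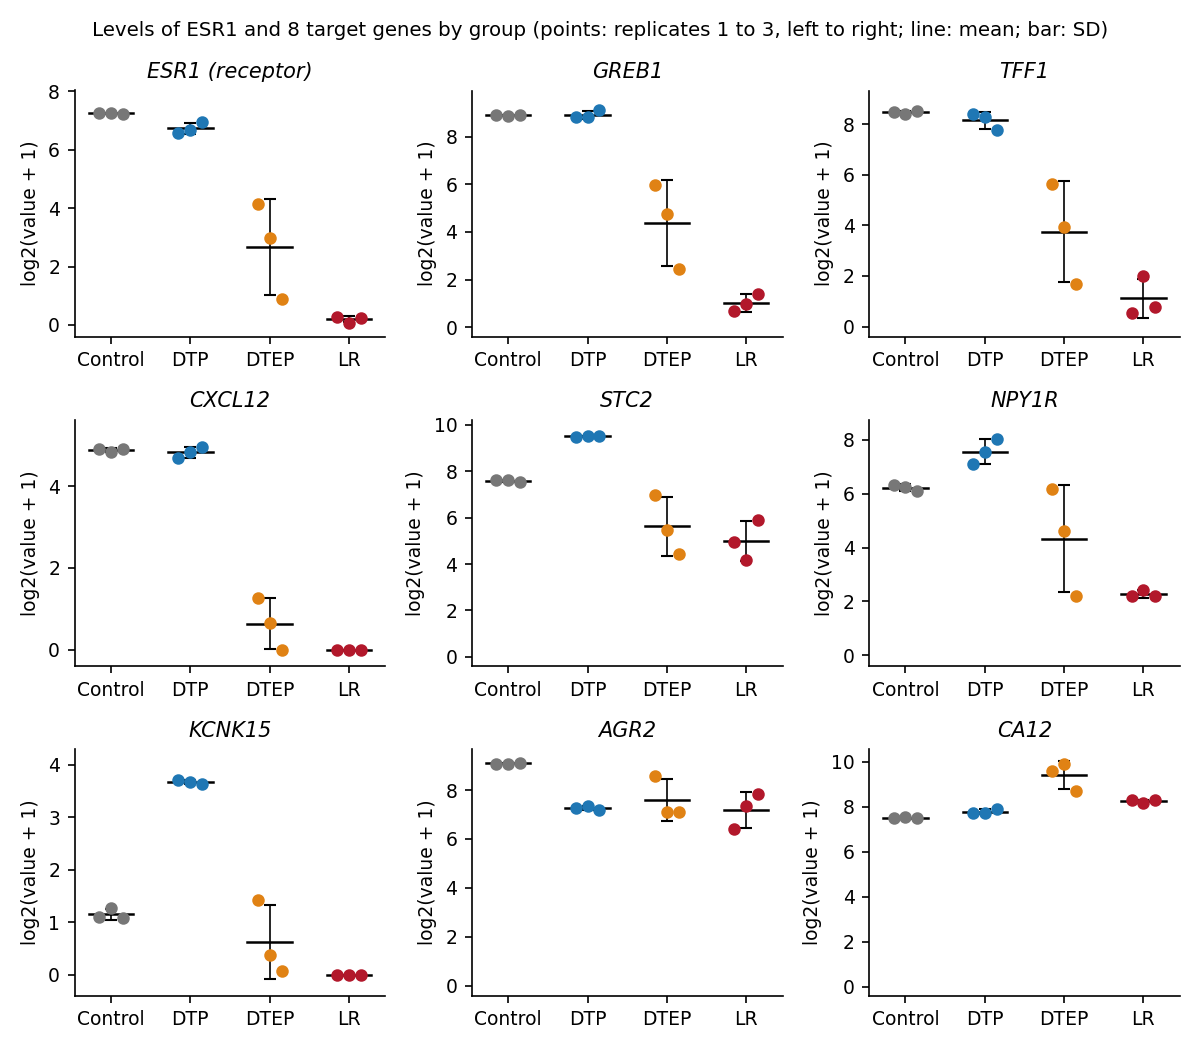
Levels of ESR1 and 8 target genes on the log2(value + 1) scale in Control, DTP, DTEP and LR (points: replicates 1 to 3 from left to right; line: mean; bar: SD, n = 3). ESR1, GREB1, TFF1 and CXCL12 step down at DTEP, STC2, NPY1R and KCNK15 lie highest in DTP, and AGR2 and CA12 stay far above 0 in every library.

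Among the 10 membrane members 9 were tested. By limma 1 was called higher (1.01% of all genes) and 1 lower (3.90%) at day 9, 3 lower in DTEP against DTP (7.02%) and 3 lower in LR against Control (7.80%). In LR against DTEP limma called 0 of them (0.457% of all genes lower), whereas edgeR and DESeq2 called KCNK15, NPY1R and SUSD3 lower, and both also called KCNK15 lower in LR against Control. KCNK15, a two-pore potassium channel subunit, was 1.15, 1.41 and 1.12 in Control, 12.003, 11.75 and 11.5 in DTP, 1.67, 0.288 and 0.0561 in DTEP and 0 in each LR library. It rose by 2.52 on the log2 scale at day 9 (SE of 0.26, limma adjusted p = 1.65e-05), a 9.57-fold ratio of means, and fell by 3.05 in DTEP against DTP. KCNK15 lost its call at day 9 when genes with a mean under 5 were left out, because it was then not tested. It overlaps RIMS4 on the opposite strand, and RIMS4 was 20.7 to 23.3 in Control, then 31.2 to 34.6 in DTP, then 0.954 to 10.7 in DTEP and 0 to 0.242 in LR. Reads were counted without strand, so reads of this pair cannot be told apart where they overlap.

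SUSD3, a sushi-domain surface protein, and NPY1R, the receptor of neuropeptide Y, were raised in each DTP library above each Control library. Neither rise passed the test in the fit of all 12 libraries, whose spread includes that of DTEP and LR. SUSD3 was 27.1, 25.3 and 26.0 in Control, 60.9, 50.1 and 41.8 in DTP, 4.55, 0.865 and 0.0561 in DTEP and 0 in each LR library. After DTP it fell by 4.53 in DTEP (SE of 0.44, limma adjusted p = 2.38e-06), and it was at least 158-fold lower in LR than in Control (log2 change -4.76, SE of 0.44, limma adjusted p = 1.69e-06). NPY1R was 79.5, 75.8 and 66.7 in Control, 136, 186 and 262 in DTP, 71.3, 23.2 and 3.65 in DTEP and 3.55, 4.43 and 3.59 in LR. NPY1R was called lower in DTEP against DTP (log2 change -3.23) and in LR against Control (-3.95), and DTEP replicate 1 lay within the Control range while DTEP replicate 3 lay within the LR range. IL6ST encodes gp130, the shared signal transducer of interleukin-6 family receptors. IL6ST was 77.8, 78.8 and 60.4 in Control, 7.93, 13.03 and 19.7 in DTP, 5.74, 8.28 and 2.02 in DTEP and 1.06, 2.88 and 2.18 in LR. It was called lower at day 9, with a log2 change of -2.41 (SE of 0.41, limma adjusted p = 0.000455), and fell further by adjusted p alone in DTEP against DTP (-1.26, limma adjusted p = 0.0159), where the groups overlapped. Its level in LR was 35.5-fold below Control (log2 change -4.63, SE of 0.41, limma adjusted p = 1.17e-06).

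CA12, a carbonic anhydrase at the cell surface that regulates pH, was 183, 186 and 179 in Control, 210.0, 211 and 239.7 in DTP, 779.6, 949.9 and 414 in DTEP and 313, 283 and 311 in LR. CA12 was thus above Control in every treated library, by adjusted p alone higher in DTEP against DTP (log2 change 1.61, limma adjusted p = 6.64e-05) and in LR against Control (0.72, limma adjusted p = 0.0177), and lower in LR against DTEP (-1.16, limma adjusted p = 0.0193). CELSR2, an adhesion receptor of the cadherin family, was 70.3 to 74.1 in Control, then 51.5 to 54.2 in DTP, then 63.2 to 117 in DTEP and 92.2 to 129 in LR, higher in LR than in Control by adjusted p alone (log2 change 0.54, limma adjusted p = 0.0304). SLC39A6, a zinc transporter, was 342 to 373 in Control, then 97.6 to 162 in DTP, then 150.1 to 181 in DTEP and 138 to 163 in LR, lower in LR than in Control by adjusted p alone (log2 change -1.26, limma adjusted p = 4.03e-05). TPBG, the trophoblast glycoprotein, was 98.0 to 103 in Control, then 117 to 125 in DTP, then 41.5 to 65.5 in DTEP and 49.2 to 59.2 in LR, likewise lower (log2 change -0.88, limma adjusted p = 0.000326). The annexin ANXA9 was 9.73 to 12.8 in Control and 13.006 to 21.6 in LR. PDZK1, a scaffold of membrane transporters with near-identical copies in the genome, was at most 0.678 and is uncertain.

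The nuclear members include GREB1, an estrogen receptor cofactor and one of its most direct targets. GREB1 (chromosome 2, 11482888 to 11642788) was 489.6, 475 and 477 in Control, 456, 456 and 557 in DTP, 61.8, 26.0 and 4.38 in DTEP and 0.591, 0.941 and 1.65 in LR. DTP overlapped with Control (log2 change 0.02, limma adjusted p = 0.984), and from there each group lay wholly below the one before. It fell by 4.55 in DTEP against DTP (SE of 0.62, limma adjusted p = 4.19e-05) and by 3.37 in LR against DTEP (SE of 0.62, limma adjusted p = 0.0132), and LR was 454-fold below Control (log2 change -7.90, SE of 0.62, limma adjusted p = 4.67e-07). The fall in LR against DTEP was not called without DTEP replicate 2 (limma adjusted p = 0.0719) or when only the 6 libraries compared were fitted (limma adjusted p = 0.287).

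SIAH2, an E3 ubiquitin ligase, was 203, 208 and 218 in Control, 310.2, 319 and 309.6 in DTP, 106, 50.7 and 39.9 in DTEP and 49.4, 29.8 and 34.9 in LR. It was called lower in DTEP against DTP (log2 change -2.37) and in LR against Control (-2.46), and kept a level of 38.0 ± 10.1 (SD, n = 3) in LR. MYBL1, a MYB-family transcription factor, was 35.6, 39.5 and 31.5 in Control, 1.62, 2.76 and 4.66 in DTP, 5.12, 10.4 and 13.2 in DTEP and 7.82, 6.25 and 12.02 in LR. Its lowest group was DTP, below Control (log2 change -3.25, SE of 0.35, limma adjusted p = 2.02e-05), and it was higher in DTEP than in DTP by adjusted p alone (log2 change 1.39, limma adjusted p = 0.00369). MYB itself, a proto-oncogene that estrogen relieves from transcriptional arrest, was 47.1 to 48.1 in Control, then 34.6 to 47.0 in DTP, then 29.2 to 79.6 in DTEP and 25.5 to 90.0 in LR, and passed no test. EGR3, an immediate early zinc finger factor below the filter, was 0.373 to 0.828 in Control and 0.111 to 0.465 in LR.

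Of the 9 signalling and metabolic members, each of which was tested, limma called 0 at day 9 (1.01% of all genes higher and 3.90% lower), 1 lower in DTEP against DTP (7.02%) and 3 lower in LR against Control (7.80%). edgeR and DESeq2 called ELOVL2 lower at day 9, and ELOVL2 and RAB31 besides PKIB in DTEP against DTP. PKIB, an inhibitor of protein kinase A, was 53.8, 52.5 and 44.5 in Control, 45.7, 49.1 and 51.3 in DTP, 19.0, 15.03 and 3.37 in DTEP and 3.51, 4.37 and 2.71 in LR. PKIB was called lower in DTEP against DTP (log2 change -2.15), where the value without DTEP replicate 3 was -1.47 and not called, and in LR against Control (-3.51). TPD52L1, a tumour protein D52 relative, was 127 to 134 in Control, then 149 to 161 in DTP, 79.4, 72.0 and 15.8 in DTEP and 23.1 to 32.8 in LR, called lower in LR against Control. It overlaps HDDC2 on the opposite strand, which was 45.9 to 66.1 in LR. RAB31, a small GTPase of vesicle traffic, was 4.60 to 5.54 in Control and 0.277 to 0.678 in LR, also called lower, with a log2 change of -2.07 that became -1.98 without LR replicate 2.

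The other 6 were not called by limma, whereas edgeR and DESeq2 called ELOVL2 and DESeq2 also RERG lower in LR against Control. NAT1, an arylamine acetyltransferase with a related neighbour gene, NAT2, was 7.96 to 8.91 in Control, then 12.5 to 18.8 in DTP, then 19.2 to 21.6 in DTEP and 11.9 to 22.4 in LR. It was higher in LR than in Control by adjusted p alone (log2 change 1.00, limma adjusted p = 0.00262). Whether reads of NAT1 and NAT2 were exchanged was not tested. ADCY9, an adenylyl cyclase, was 34.4 to 39.9 in Control and 43.8 to 59.4 in LR (log2 change 0.48, limma adjusted p = 0.0237). DNAJC12, a co-chaperone, lay highest in DTP at 16.4 to 17.4, beside 7.31 to 8.66 in Control. FKBP4, the immunophilin that assists steroid receptor folding, was 539 to 562 in Control, then 246 to 796 in DTEP and 236 to 424 in LR. RERG, an estrogen-regulated growth inhibitor of the RAS superfamily, was 16.1 to 17.8 in Control, then 9.76 to 12.3 in DTP and 1.49 to 6.93 in LR, and its log2 change in LR against Control, -1.997, lay at the limit for a call. ELOVL2, a fatty acid elongase, was 1.85 to 2.42 in Control, under 1 in every DTP and DTEP library and without a read in LR, and entered the test through its Control level alone.

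In LR, 6 of the 35 members (AGR3, SERPINA5, CXCL12, KCNK15, SUSD3 and ELOVL2) had no read in any of the 3 libraries, whereas in Control, DTP and DTEP each member had a read in at least 1 library. Of all 15988 genes with a read in every Control library, as the 35 members had, 5.99% had none in LR. The DTEP libraries held different shares of the Control level. Over the 13 members called lower in DTEP against DTP, the median level as a percent of the Control mean was 26.7% in replicate 1, 8.36% in replicate 2 and 2.71% in replicate 3. Replicate 1 was the highest of the 3 libraries for 13 of the 13 members, and replicate 3 the lowest for 13 of 13. Among all 969 genes called lower in this comparison, replicate 1 was highest for 89.7% and replicate 3 lowest for 82.5%, and among all tested genes these shares were 42.8% and 47.1%. The same 13 members, whose choice favours high DTP levels, stood at a median of 148%, 152% and 148% of the Control mean in the DTP libraries and of 0.131%, 0.846% and 0.343% in the LR libraries.

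**Figure D4:**
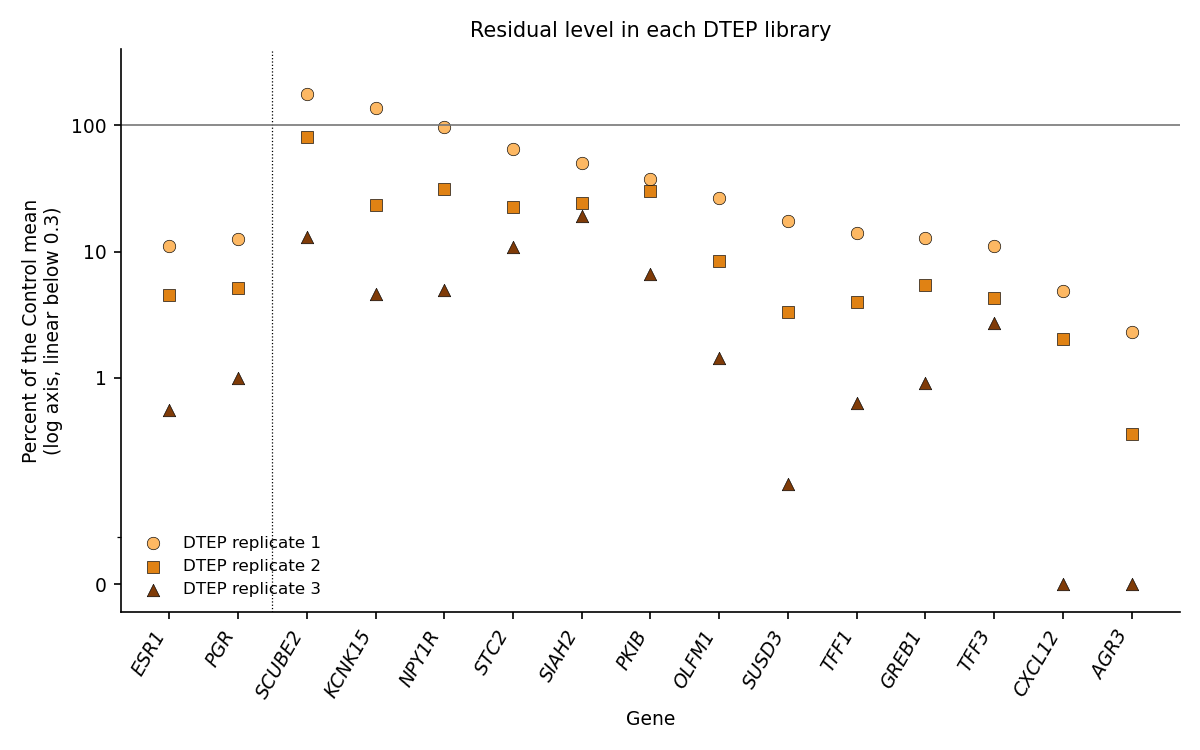
Level of ESR1, PGR and the 13 members called lower in DTEP against DTP in each DTEP library, as a percent of the Control mean (vertical axis logarithmic, linear below 0.3; grey line at 100). Circles (replicate 1) lie above squares (replicate 2) and triangles (replicate 3) for each gene drawn, and AGR3 and CXCL12 have no read in replicate 3.

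ESR1, the receptor gene itself, was 150.3, 153 and 149 in Control, 93.5, 101 and 122 in DTP, 16.7, 6.88 and 0.842 in DTEP and 0.211, 0.0553 and 0.194 in LR. Each group lay wholly below the one before. DTP against Control did not pass the test in the fit of all 12 libraries (log2 change -0.52, limma adjusted p = 0.467), whose spread includes that of DTEP and LR. PGR, the progesterone receptor gene, was 1262, 1251 and 1022 in Control, 740.0, 858 and 1130.4 in DTP, 147, 60.4 and 11.8 in DTEP and 3.00, 0.332 and 4.02 in LR. PGR in DTP overlapped Control and both later groups lay below. In LR against Control the log2 change was -8.62 for PGR (SE of 0.70, limma adjusted p = 6.15e-07) and -7.04 for ESR1 (SE of 0.57, limma adjusted p = 5.84e-07). Both were also called lower in each of the transitions that followed DTP.

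Of the 20 genes of a list of estrogen receptors and cofactors, 19 were tested. By limma 0 were called higher and 1 lower in DTP against Control (1.01% and 3.90% of all genes), 3 higher and 4 lower in DTEP against DTP (8.13% and 7.02%), 0 higher and 2 lower in LR against DTEP (0.225% and 0.457%) and 1 higher and 5 lower in LR against Control (5.03% and 7.80%), where the median log2 change was 0.74. NCOA2, a p160 coactivator, was called lower at day 9 (log2 change -3.14) and higher in DTEP against DTP (2.53), where DTEP replicate 1 at 24.3 lay within the DTP range of 7.41 to 26.4. The corepressor gene NRIP1 had a log2 change of 2.63 in DTEP against DTP and XBP1, a transcription factor of the unfolded protein response, one of 2.17, and GPER1, a membrane estrogen receptor, fell by 3.08. GATA3 was 183 to 198 in Control and 909.8 to 1572 in LR, a log2 change of 2.68 that was called higher, and FOXA1 was 380.1 to 405 in Control and 666 to 939.6 in LR. The Mediator subunit MED1, which lies in the ERBB2-amplified segment of BT474, was 2641 to 2656 in Control, then 1012 to 1463 in DTP, then 205 to 244 in DTEP and 201 to 223 in LR (log2 change -3.65 in LR against Control). NCOA3, in another segment amplified in BT474, was 1330.2 to 1350.4 in Control and 230.2 to 284 in LR and was called lower, as was GPER1. The part of copy number, cell composition or cell origin in these values was not tested.

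A second list held 29 other estrogen-responsive genes, of which 28 were tested. By limma 1 was called higher and 1 lower in DTP against Control (1.01% and 3.90% of all genes), 2 higher and 8 lower in DTEP against DTP (8.13% and 7.02%), 0 higher and 2 lower in LR against DTEP (0.225% and 0.457%) and 0 higher and 11 lower in LR against Control (5.03% and 7.80%), with a median log2 change of -0.83. HSPB8, a small heat shock protein, was 149 to 159 in Control, then 647 to 688 in DTP, 176, 41.8 and 5.16 in DTEP and 0.166 to 0.634 in LR. HSPB8 rose by 2.11 at day 9 (limma adjusted p = 0.0465) and had log2 changes of -4.21 and -4.70 in the next transitions. RET, a receptor tyrosine kinase, was 90.7 to 91.5 in Control, then 14.6 to 14.9 in DTP, then 46.1 to 116 in DTEP and 65.4 to 111 in LR, with log2 changes of -2.55 at day 9 and 2.14 in DTEP against DTP. CYP1B1, an estradiol hydroxylase, was called higher in DTEP against DTP (log2 change 3.66). SCNN1A, a sodium channel subunit, and BCAS1, which like NCOA3 lies in a segment amplified in BT474, had the largest called falls in DTEP against DTP, with log2 changes of -4.78 and -4.58. In LR against Control the log2 change was -6.97 for BCAS1, -6.80 for HSPB8 and -6.14 for SCNN1A, and RHOBTB3 fell by 3.11 after DTEP.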

How the data were processed

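Stranded mRNA libraries of BT474 cells were made by the authors, who aligned reads to hg38 with Rsubread, assigned them to RefSeq gene models with default settings, which ignore strand, and normalised them. The deposited table holds this signal per gene and library, and its 199680 values above 0 were all whole multiples of 1 read (tolerance 0.001), so reads were recovered. No column was left out. Groups and replicate numbers came from the labels. The members and lists were chosen with earlier results of these data known.

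Changes on log2(value + 1) were tested with limma 3.58.1 (R 4.3.3), in one fit of all 12 libraries without covariates and with a variance trend. Genes that reached 1 in 3 or more libraries entered (13794 of 26485; 6104 had no read). Tests were two-sided, with Benjamini-Hochberg adjustment per comparison. Members called and not overlapping between groups were given full statistics, up to 8 per direction and comparison. Members outside that rule were given by levels, and genes of the lists by the 3 largest called changes in each direction. On simulated reads for DTP against Control, limma recovered 193 of 200 changed genes with 0 false calls among 13399. The planted changes were 8-fold, lay in genes above a level cut, and all groups had the same dispersion. The wider spread of the DTEP and LR libraries was not simulated, so this check does not measure false calls in comparisons with them. Alternatives used other pseudocounts, filters and scalings, edgeR 4.0.16 and DESeq2 1.42.0 on the recovered reads, a replicate block, other thresholds and each library left out. Promoter windows and coordinates came from RefSeq (GRCh38.p14), to which all 35 members matched. Overlaps between genes came from GENCODE, whereas the authors counted reads over RefSeq models.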

Additional observations from a re-analysis of the deposited data

How the results depend on the processing

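The members called higher in DTP against Control numbered 1, and 2 with a pseudocount of 0.1 or 0.5, 2 with edgeR, 2 with DESeq2, 0 with a mean of at least 5, 4 above an absolute log2 change of 1 and 6 by adjusted p alone. Those called lower there numbered 3, and 6 above 1 and 8 by adjusted p alone. In DTEP against DTP, 0 were called higher, and 2 above 1 and 4 by adjusted p alone. The 13 called lower became 20 by adjusted p alone, and 11 to 14 with one library left out. In LR against Control, 0 were called higher, and 4 by adjusted p alone, and the 15 called lower became 23 above 1, 25 by adjusted p alone and 14 to 18 with one library left out. With edgeR, DESeq2 or a pseudocount of 0.1, more members were called lower than these 13 and 15. More of all genes were called lower too: 12.6%, 13.1% and 12.1% in DTEP against DTP. In LR against Control these shares were 11.9%, 12.5% and 12.5%.

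LR against DTEP depended most on the settings. The 2 members called lower became 7 with a pseudocount of 0.1, 4 with 0.5, 1 without a filter, 1 without the variance trend, 5 above 1 and 6 by adjusted p alone. They became 10 with edgeR and 11 with DESeq2, which called 3.70% and 4.52% of all genes lower. With only the 6 libraries compared, 0 were called, with 7 members at an unadjusted limma p under 0.05 (edgeR on all 12 libraries called 10). Without one library the count was 0 to 5, namely 0 without DTEP replicate 2, 5 without DTEP replicate 3 (1.55% of all genes) and 1 without any other. The cause of these shifts was not tested.

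With the replicate number as a block, 1 member was called lower in LR against DTEP in place of 2, and the other counts of calls did not move. Over all pairs of groups, r between deviations of same-number libraries ran from -0.44 to 0.36 (18 pairs). For different numbers it ran from -0.43 to 0.46 (36 pairs). Between DTP and DTEP, r was 0.36, -0.0046 and 0.34 for replicates 1, 2 and 3, and -0.43 to 0.29 for different numbers. Whether the numbers pair the samples is not settled by these values. Of 846 alternative values for 34 results on single genes, 826 kept their direction and their side of the threshold. These include the looser thresholds, an absolute log2 change above 1 and adjusted p alone, which cannot lose a call. A setting in which a gene was not tested added no value. The call was lost in 20 values, 15 of them TFF1 in LR against DTEP, whose limma adjusted p ranged from 0.000185 to 0.301. The other lost calls were GREB1 in the same comparison, PKIB, SCUBE2 and RAB31. No value changed direction. Genes near 0 are limited by depth to at least 3 reads.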
